A study of Homo sapiens with 18 samples.

Results

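RNA was compared between the D2000 and the D6 cells of the VPR-D9 line, an isogenic derivative of K562, a cell line from chronic myeloid leukaemia, in which doxycycline switches on dCas9-VPR, a nuclease-dead Cas9 fused to a transcriptional activator. The comparison used 4 of the 18 libraries, 2 for D2000 and 2 for D6, chosen by the names of the count columns, and covered the 22143 of 41285 genes that passed a filter on low counts. Both groups are labelled as doxycycline alone, without interferon. The general protocol states doxycycline at 2 µg/mL; the meaning of the codes D2000 and D6, and whether dose or duration differed, is not given in the sources used here. Untreated VPR-D9 cells (2 libraries) are set beside both. The other libraries came from parental K562 cells and from KRAB-D9 cells, in which doxycycline induces a dCas9 repressor. The parental cells were untreated or given interferon, and the KRAB-D9 cells were untreated or given doxycycline, interferon or both. The general protocol states interferon at 1000 U/mL for 24 h. VPR-D9 is 1 engineered line, its guide is not given in the sources used here, and doxycycline-treated parental cells were not analysed here. KRAB-D9 cells given doxycycline carry a repressor in place of the activator, so within VPR-D9 the drug, the activator and SAMD9 cannot be told apart.

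The SAMD9 protein sits in the cytoplasm and holds back translation and proliferation; interferon switches its gene on. Ribosomes are assembled in the nucleolus: RNA polymerase I makes the ribosomal RNA precursor, and the small-subunit processome and the 60S assembly factors fold, cut and package it with ribosomal proteins. The transcription factor MYC is known to drive many of these genes, along with those for nucleotide synthesis and glycolysis.

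Libraries held 61.6 M and 55.5 M counts for D2000, 49.9 M and 46.9 M for D6, and 59.5 M and 63.0 M for untreated VPR-D9 cells. Levels are counts per 1e+06 counts (CPM), scaled by TMM, the trimmed mean of M-values, which sets libraries so that the bulk of genes does not differ. The TMM factors were 1.167 and 1.192 in D2000 and 1.038 and 1.022 in D6, and scaling by library totals in place of TMM raised log2 fold changes by 0.19. At least 1 CPM was reached by 13980 and 13989 genes in D2000, 13417 and 13372 in D6 and 13211 and 13166 in untreated cells. Mitochondrially encoded genes took 4.963 and 4.886% of counts in D2000 and 4.517 and 4.779% in D6. Of 11 genes that mark K562 cells, 11 reached 1 CPM in both groups. KRT5, a keratin of epithelia, had no count in D2000, D6 or untreated cells, and the myeloid genes MPO, FCGR3A and CD14 reached at most 0.341 CPM of library totals in D2000 and D6.

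SAMD9 (ENSG00000205413.8, chromosome 7, 93099513 to 93118023 in the build of the files, GRCh38.p13) stood at nearly the same level in both groups when scaled by TMM. Its level was 974 and 948 CPM in D2000, 936 and 960 CPM in D6, against 59.9 and 61.4 CPM in untreated cells. D2000 and D6 overlapped, and both lay far above untreated cells. The log2 fold change of D2000 over D6 was 0.02 ± 0.05 (SE; edgeR quasi-likelihood test with Benjamini-Hochberg adjustment, adjusted p = 0.821), with a 95% interval of 0.941-fold to 1.09-fold. With library totals SAMD9 was called higher in D2000 (0.21, 1.08-fold to 1.25-fold, edgeR adjusted p = 0.00141), so its equality rests on the scaling. SAMD9L, the adjacent paralog, had 5.45 and 6.25 CPM in D2000, 3.78 and 4.11 CPM in D6, against 3.60 and 4.61 CPM in untreated cells. It rose in D2000 over D6 by 0.57 ± 0.16 (edgeR adjusted p = 0.00315), at a level far below that of SAMD9.

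Genes with the largest rise of D6 over untreated cells mostly stood higher still in D2000. The 12 genes with the largest such rise and at least 5 CPM in D6 were chosen after values were seen. Of them 10 were higher in D2000 than in D6, and SAMD9 and COL1A1 were not called. Over all genes tested 18.8% were called higher in D2000 with TMM. RNF223 had 145 and 157 CPM in D2000, 50.6 and 54.6 CPM in D6, against 0 and 0.0316 CPM in untreated cells. PMEL, a structural protein of melanosomes, had 129 and 110 CPM in D2000, 13.6 and 15.7 CPM in D6, against 0.452 and 0.505 CPM in untreated cells. For both genes D2000, D6 and untreated cells formed 3 separate steps. COL1A1, a chain of type I collagen, shared the pattern of SAMD9, with 30.9 and 30.0 CPM in D2000, 31.4 and 30.9 CPM in D6, against 3.38 and 2.67 CPM in untreated cells (D2000 over D6 -0.03 ± 0.13, 0.815-fold to 1.17-fold, edgeR adjusted p = 0.880).

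**Figure D1:**
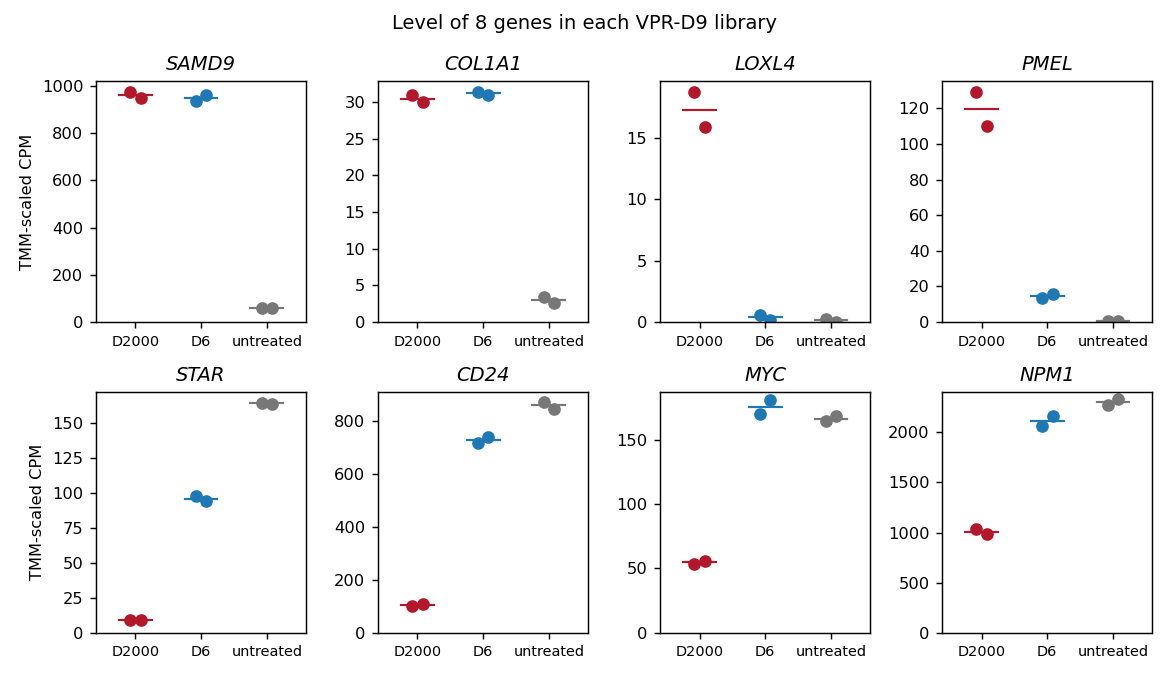
Level of 8 genes in TMM-scaled CPM (linear axes from 0), with 1 point per library and a bar at the mean of 2 libraries for D2000, D6 and untreated VPR-D9 cells. SAMD9 and COL1A1 are level between D2000 and D6, LOXL4 and PMEL are highest in D2000, and STAR, CD24, MYC and NPM1 are lowest in D2000.

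Across genes D2000 and D6 differed widely. With TMM, 8949 genes or 40.4% of those tested were called at an adjusted p under 0.05, 4152 higher in D2000 (18.8%) and 4797 lower (21.7%), and 10260 had an unadjusted p under 0.05. With library totals the balance turned to 6481 higher (29.3%) and 2945 lower (13.3%), so that the share of called genes that were higher was 46.4% with TMM and 68.76% with totals. All 4152 genes called higher with TMM were also higher with totals, and 2945 were lower with both. The scalings disagreed over 1844 genes called lower with TMM and not called with totals, and over 2321 that were not called with TMM and higher with totals. 8 genes were called in opposite directions.

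Changes over 2-fold ran mostly upward under both scalings. With TMM 1378 genes were over 2-fold higher in D2000, and with totals 2030, which include those 1378. On the lower side 529 genes passed with TMM, of which 318 also passed with totals. The 1378 higher genes were mostly faint: their median level was 2.45 CPM in D2000, against 0.807 CPM in D6, where 762 were under 1 CPM. Of them 956 were protein-coding and 311 were long non-coding RNAs. The 529 lower genes had a median of 1.90 CPM in D2000 and 5.19 CPM in D6.

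The balance of directions moved with the level of the gene. In the lowest quintile of genes by mean level the median log2 fold change was 0.28 with TMM and 0.47 with totals. In the highest quintile it was -0.18 with TMM and 0.01 with totals. From the lowest to the highest quintile, genes called lower with TMM made up 1.6, 3.41, 11.7, 35 and 56.6%, and genes called higher 3.27, 9.89, 31.8, 29.1 and 19.7%, so few faint genes were called in either direction. With totals the highest quintile had 35.8% lower and 37.8% higher. Gene length showed no such slope, with medians between 0.01 and 0.09 over 5 bins. Long non-coding RNAs had a median of 0.29 and protein-coding genes of 0. In whole-culture RNA, fewer cells expressing a gene and less RNA per cell cannot be told apart.

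**Figure D2:**
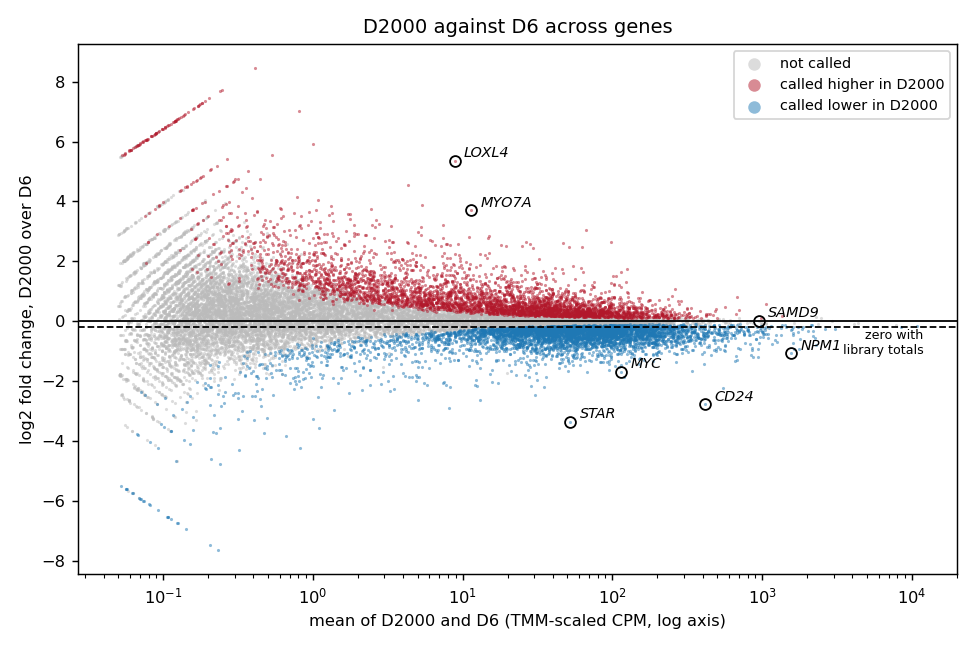
Log2 fold change of D2000 over D6 against mean level (TMM-scaled CPM, log axis) for 21430 genes of at least 0.05 CPM, coloured by call; the solid line is zero with TMM and the dashed line is where zero falls with library totals. Genes called lower lie mainly at the abundant end and genes called higher mainly in the middle of the range, with SAMD9 on the zero line; the slanted streaks at the left are genes without counts in 1 group, whose fitted values depend on a prior count.

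The steepest rises in D2000 were genes that were nearly silent in D6. LOXL4 (chromosome 10, 98247690 to 98268194), a lysyl oxidase-like enzyme that cross-links collagen, had 18.7 and 15.9 CPM in D2000, 0.618 and 0.209 CPM in D6, against 0.284 and 0.0474 CPM in untreated cells (5.36 ± 0.38, edgeR adjusted p = 5.76e-12). FBLN2, the matrix protein fibulin 2, had 9.65 and 10.6 CPM in D2000, 0.926 and 0.418 CPM in D6, against 0.217 and 0.174 CPM in untreated cells (3.90 ± 0.34). For both genes the D2000 libraries stood apart, with D6 and untreated cells at or below 1 CPM. MYO7A, an unconventional myosin of sensory hair cells, had 21.6 and 20.8 CPM in D2000 and 1.41 and 1.84 CPM in D6 (3.71 ± 0.30). In untreated cells it had 0.0669 and 0.0789 CPM. On the log2 scale D6 over untreated cells was called higher for MYO7A (4.43) and FBLN2 (1.78), and not called for LOXL4 (1.35). The remaining 9 of the 12 steepest rises were MYO15A (4.06), TTC24 (3.84), ARHGEF15 (3.73), CEACAM7 (3.72), TH (3.61), TGM5 (3.58), CDK18 (3.57), KLC3 (3.55) and RPH3AL-AS1 (3.42). TH encodes tyrosine hydroxylase of catecholamine synthesis, TGM5 a transglutaminase of the epidermis and MYO15A another hair-cell myosin. These 9 genes were below 5 CPM in D2000, and TTC24, ARHGEF15, TH and RPH3AL-AS1 were not called by DESeq2, with adjusted p of 0.143, 0.689, 0.700 and 0.560.

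The 12 steepest falls ran from faint to abundant genes, between 1.83 and 729 CPM on average in D6. STAR, which carries cholesterol into mitochondria for steroid synthesis, had 9.37 and 9.17 CPM in D2000, 97.3 and 94.0 CPM in D6, against 164 and 163 CPM in untreated cells (-3.37 ± 0.06, edgeR adjusted p = 2.12e-33). The D6 level lay between D2000 and untreated cells. CD24 (chromosome 6, 106969831 to 106975627), a glycosylated surface protein with near-identical copies elsewhere in the genome, had 103 and 109 CPM in D2000, 717 and 740 CPM in D6, against 872 and 846 CPM in untreated cells (-2.78 ± 0.06, edgeR adjusted p = 4.3e-26). NEFH, the heavy neurofilament chain, had 8.96 and 9.84 CPM in D2000, against 50.2 and 52.5 CPM in D6 (-2.45 ± 0.07). CALB1, a calcium-binding protein, had 1.74 and 2.09 CPM in D2000, against 14.5 and 14.1 CPM in D6 (-2.90 ± 0.11). IGF1, KCNQ5, GPR183, TCN1, FABP5 and the globins HBZ, HBD and HBA1 made up the rest of the 12 steepest falls, at -2.97 to -2.25. They stayed called lower with library totals too.

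The largest losses in absolute terms were of abundant transcripts. Ranked by the loss in CPM of library totals, the first 8 genes were HSP90AB1, NPM1, ENO1, HSPA8, NMU, NCL, HSP90AA1 and FTL. NPM1, the nucleolar chaperone nucleophosmin, had 1034 and 982 CPM in D2000, 2067 and 2166 CPM in D6, against 2275 and 2337 CPM in untreated cells (-1.07 ± 0.05, edgeR adjusted p = 6.11e-16). NCL, the nucleolar protein nucleolin, had 573 and 563 CPM in D2000, against 1271 and 1335 CPM in D6 (-1.20 ± 0.04). NMU, the neuropeptide neuromedin U, had 192 and 198 CPM in D2000, 894 and 925 CPM in D6, against 861 and 859 CPM in untreated cells (-2.22 ± 0.04). All of these fell under both scalings. The 8 largest gains were MACF1, MT-CO2, MT-CYB, NCOA4, MT-ATP6, MT-CO3, PSAP and MT-RNR2. MACF1, a linker of actin and microtubules, had 1304 and 1251 CPM in D2000, 890 and 835 CPM in D6, against 575 and 602 CPM in untreated cells (0.57 ± 0.04). NCOA4, the receptor that delivers ferritin to lysosomes, had 879 and 855 CPM in D2000, against 490 and 496 CPM in D6 (0.81 ± 0.03). The ferritin light chain FTL had 1869 and 1750 CPM in D2000, 2628 and 2735 CPM in D6, against 2030 and 1981 CPM in untreated cells (-0.57 ± 0.04). Against untreated cells FTL was higher in D6 (0.42 ± 0.04) and lower in D2000 (-0.15 ± 0.04). The 5 mitochondrial gains were not called with TMM, where MT-CO3 (-0.06) and MT-RNR2 (-0.14) were slightly lower in D2000. With totals MT-CO2 and MT-CYB were called higher. MT-ATP6, MT-CO3 and MT-RNR2 were not called with totals either (edgeR adjusted p = 0.102, 0.334 and 0.664).

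Genes of ribosome assembly were lower in D2000 almost throughout. Of 57 genes of the small-subunit processome and 40S assembly 55 fell and none rose, with a median log2 fold change of -0.89 beside 0.05 over all genes. Of 55 genes of 60S assembly 53 fell and none rose (median -0.84), and of 25 genes of RNA polymerase I and the nucleolus 24 fell and none rose (median -0.71). With library totals 53, 52 and 20 genes of these lists were still lower, and the medians were -0.69, -0.64 and -0.52 beside 0.25 over all genes. Many of these genes are abundant: 41 of 57, 42 of 55 and 17 of 25 lay in the top quintile by level, where 56.6% of all genes were called lower and 19.7% higher.

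UTP20 (chromosome 12, 101280105 to 101386618), a scaffold of the processome, had 61.4 and 62.5 CPM in D2000, 153 and 157 CPM in D6, against 171 and 174 CPM in untreated cells (-1.32 ± 0.04, edgeR adjusted p = 7.82e-25). The D6 libraries lay a little below untreated cells and the D2000 libraries far below both. HEATR1 (-1.12 ± 0.04) and NOP56, a core protein of box C/D snoRNPs (-1.05 ± 0.04), moved likewise. DDX21, a nucleolar RNA helicase, had 374 and 371 CPM in D2000, 921 and 956 CPM in D6, against 995 and 1008 CPM in untreated cells (-1.33 ± 0.04, edgeR adjusted p = 1.32e-27). MRTO4, which holds the place of the ribosomal stalk during 60S assembly, had 81.8 and 81.1 CPM in D2000, against 218 and 219 CPM in D6 (-1.42 ± 0.04). EBNA1BP2, another 60S assembly factor, fell by 1.26 ± 0.04 on the log2 scale. Among nucleolar genes NOLC1 (-1.37 ± 0.04) and DKC1, the pseudouridine synthase dyskerin (-1.10 ± 0.04), fell alongside NCL.

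**Figure D3:**
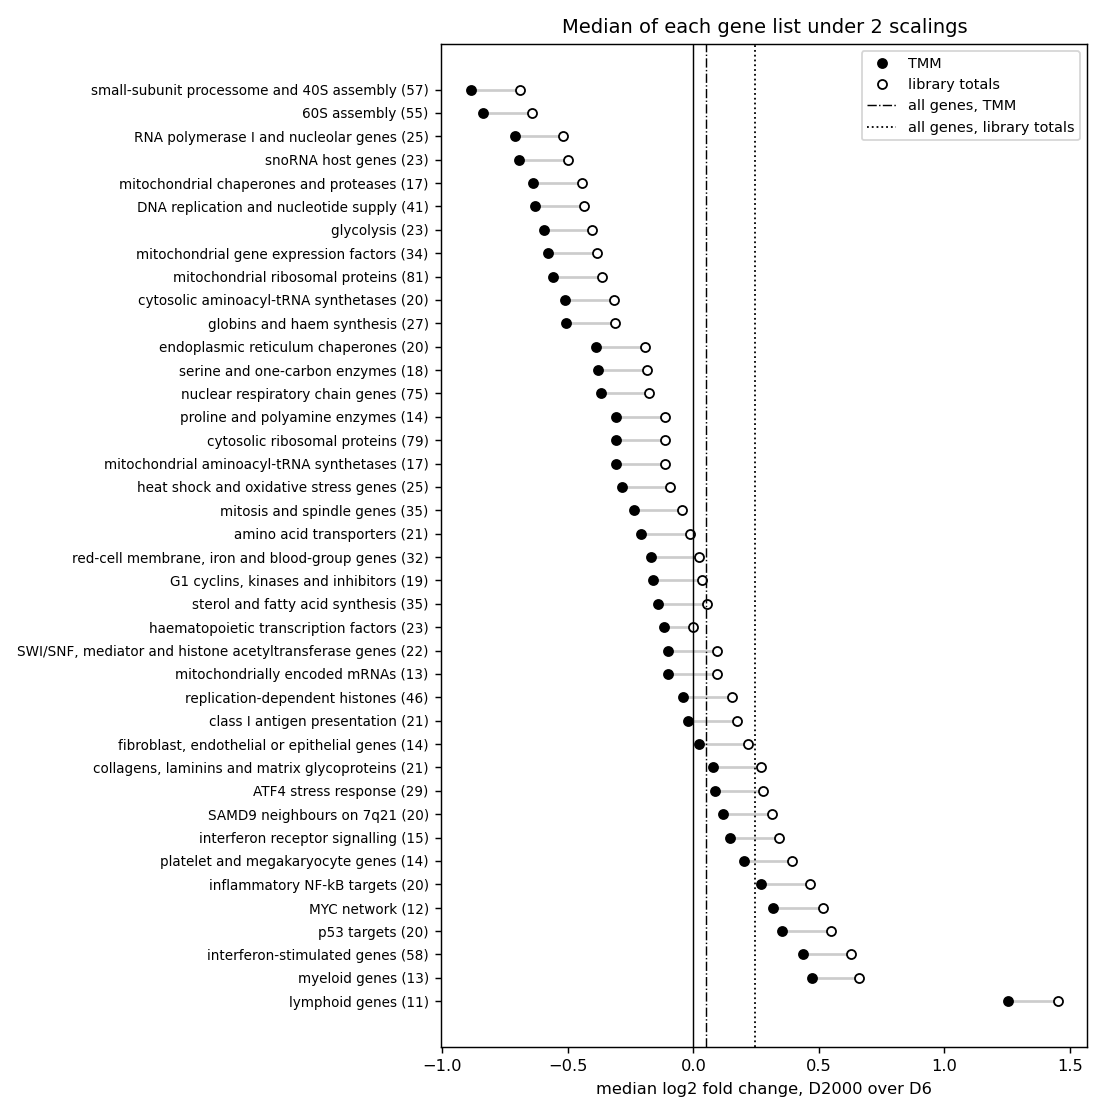
Median log2 fold change of D2000 over D6 for 40 gene lists, numbers of tested genes in brackets, with TMM (filled) and with library totals (open); vertical lines mark zero and the median of all genes under each scaling. Ribosome assembly lists lie at the low end under both scalings, and interferon-stimulated, myeloid and lymphoid genes at the high end.

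MYC itself fell. It had 53.3 and 56.0 CPM in D2000, 170 and 181 CPM in D6, against 164 and 168 CPM in untreated cells (-1.68 ± 0.04, edgeR adjusted p = 2.34e-28). D6 and untreated cells were close, and D2000 was at 0.312-fold of D6. In the list of 12 genes of the MYC network 7 rose and 3 fell (median 0.32), and with totals 9 rose and 1 fell. MLXIPL, a glucose-responsive partner of MLX, had 20.1 and 22.4 CPM in D2000, against 8.09 and 7.08 CPM in D6 (1.48 ± 0.14). MXD3, a MAX partner that opposes MYC, rose by 1.00 ± 0.11 on the log2 scale. Spermidine synthase, SRM, had 54.0 and 48.7 CPM in D2000, 185 and 188 CPM in D6, against 207 and 207 CPM in untreated cells (-1.86 ± 0.05, edgeR adjusted p = 3.19e-26).

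The E-box CACGTG, the palindrome bound by MYC and MAX, was searched on both strands in the 250 bases before the start of each gene (RefSeq, GRCh38.p14). It was present in 6.34% of 35116 promoter windows. The lists held it in 8 of 49 processome genes with a window (16.33%) and in 5 of 47 for 60S assembly (10.64%). The first share counted every window, whether or not its gene was tested, and the lists a single window per gene. The shares are therefore not like for like. Stretches of 60 bases from UTP20 (chr12:101280045-101280104, plus strand) and SRM (chr1:11060182-11060241, minus strand) are shown because both genes fell by more than 2-fold and hold the motif, given in capitals. A match is a description of these letters and not evidence of binding.
UTP20: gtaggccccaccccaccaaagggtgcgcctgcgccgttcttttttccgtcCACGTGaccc
SRM: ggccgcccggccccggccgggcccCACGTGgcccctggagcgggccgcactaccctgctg

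Structural ribosomal proteins had smaller shifts. Of 79 cytosolic ribosomal protein genes 74 fell and none rose with TMM (median -0.31), whereas with library totals 39 fell and 4 rose (median -0.11); 75 of the 79 lay in the top quintile by level. RPL35 had 359 and 345 CPM in D2000, against 495 and 506 CPM in D6 (-0.51 ± 0.04). RPS26 (-0.76 ± 0.04) and RPL17 (-0.80 ± 0.06) fell more, and as members of families with many processed pseudogenes their counts are uncertain. Of 23 host genes of small nucleolar RNAs 20 fell with TMM (median -0.69) and 16 with totals, while 1 rose with totals. SNHG1 had 108 and 103 CPM in D2000, against 221 and 235 CPM in D6 (-1.11 ± 0.05), and SNHG4 and DANCR fell by 1.36 and 1.19 on the log2 scale.

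Nuclear genes that build mitochondria fell, while transcripts of the mitochondrial genome had a median near 0. Of 81 mitochondrial ribosomal proteins 75 fell and none rose (median -0.56); with totals 65 fell and 1 rose. MRPL3 had 57.5 and 56.5 CPM in D2000, against 121 and 127 CPM in D6 (-1.12 ± 0.05). Of 34 factors for mitochondrial gene expression 30 fell with TMM and 23 with totals, including TWNK, the helicase that replicates mitochondrial DNA (-1.36 ± 0.06), PNPT1 (-1.15) and TUFM (-0.92). The 7 mitochondrial chaperones all fell under both scalings. HSPD1, the chaperonin that folds imported proteins, had 399 and 395 CPM in D2000, 945 and 989 CPM in D6, against 1116 and 1132 CPM in untreated cells (-1.28 ± 0.03, edgeR adjusted p = 2.83e-28). HSPA9 (-0.92) and TRAP1 (-1.06) fell with it. Of 10 mitochondrial proteases 8 fell with TMM, and with totals 5 fell and 2 rose.

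Of 75 nuclear genes for the respiratory chain and ATP synthase 58 fell and 1 rose with TMM (median -0.37), against 35 and 7 with totals. In the top quintile by level, which held 58 of the 75, all genes were called lower in 56.6% of cases with TMM and 35.8% with totals. ATP5F1B, the catalytic beta subunit of ATP synthase, had 852 and 820 CPM in D2000, against 1199 and 1202 CPM in D6 (-0.52 ± 0.03). CYC1 and ATP5MC3 fell by 0.72 and 0.60 on the log2 scale. Among 13 mitochondrially encoded mRNAs 3 fell and none rose with TMM (median -0.10), whereas with totals none fell and 2 rose (median 0.10). MT-CO1 had 7857 and 7767 CPM in D2000, against 8763 and 9244 CPM in D6, a fall of 0.20 ± 0.04 with TMM and a value of -0.01 with totals.

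Enzymes that charge tRNAs and supply amino acids and folate units were mostly lower. Of 20 cytosolic aminoacyl-tRNA synthetases 19 fell and none rose (median -0.51), and 15 fell with totals. The top quintile by level, where 56.6% of all genes were called lower with TMM, held 19 of these 20. IARS1 had 216 and 206 CPM in D2000, against 402 and 415 CPM in D6 (-0.95 ± 0.04), and FARSB and KARS1 fell by 1.12 and 0.85 on the log2 scale. Of 17 mitochondrial synthetases 10 fell with TMM, MARS2 most clearly among the named ones (-1.30 ± 0.08), and with totals 7 fell and 2 rose. Among 18 serine and one-carbon enzymes 12 fell and 4 rose, against 10 and 4 with totals. MTHFD1L, the mitochondrial formate-releasing enzyme, had 14.8 and 14.4 CPM in D2000, against 40.6 and 38.2 CPM in D6 (-1.43 ± 0.06). MTHFD1 and MTHFD2 fell by 0.77 and 0.68 on the log2 scale. In the serine synthesis branch 2 of 3 genes rose and 1 fell.

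Amino acid transporters fell in 11 of 21 cases and rose in 1, and with totals fell in 7 and rose in 4. The top quintile by level, where 56.6% of all genes were called lower with TMM, held 8 of these 21. SLC38A5, a glutamine and serine transporter, had 32.3 and 31.7 CPM in D2000, against 109 and 99.7 CPM in D6 (-1.70 ± 0.06), SLC7A1, a transporter of cationic amino acids, fell by 1.17 and SLC38A1 fell by 0.65. Of 14 proline and polyamine enzymes 10 fell and 3 rose, and with totals 7 fell and 4 rose. PYCR1, the last step of proline synthesis, had 45.8 and 46.8 CPM in D2000, against 120 and 118 CPM in D6 (-1.36 ± 0.05). ODC1, the rate-limiting enzyme of polyamine synthesis, fell by 1.04 ± 0.04 on the log2 scale. The 29 genes of the ATF4 stress response were split, with 9 higher and 8 lower, and with totals 15 higher and 4 lower. ATF4 mRNA had 105 and 105 CPM in D2000, against 165 and 155 CPM in D6 (-0.61 ± 0.04, edgeR adjusted p = 1.01e-15), and CBS (-1.06) and STC2 (-0.89) fell, while of the 15 targets and feedback genes in the list 4 rose and 3 fell (7 and 3 with totals).

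In glycolysis 15 of 23 genes fell and 5 rose (median -0.60), and with totals 14 fell and 7 rose. The top quintile by level, where 56.6% of all genes were called lower with TMM, held 17 of these 23. HK2, the hexokinase that commits glucose to the pathway, had 12.2 and 12.9 CPM in D2000, 57.9 and 56.2 CPM in D6, against 70.2 and 70.6 CPM in untreated cells (-2.19 ± 0.07, edgeR adjusted p = 2.99e-26). LDHA, which makes lactate, had 418 and 406 CPM in D2000, against 895 and 947 CPM in D6 (-1.16 ± 0.04). ENO1 fell by 0.93 ± 0.03 on the log2 scale.

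Genes for copying DNA fell together. Of 41 genes of DNA replication and nucleotide supply 38 fell and none rose with TMM (median -0.63), and 37 fell and none rose with totals; 35 of the 41 lay in the top quintile by level. PAICS, an enzyme of purine synthesis, had 293 and 284 CPM in D2000, against 616 and 633 CPM in D6 (-1.11 ± 0.04), and GART (-0.94) fell with it. MCM4, a subunit of the replicative helicase, had 205 and 195 CPM in D2000, against 380 and 378 CPM in D6 (-0.92 ± 0.04). Of 35 mitosis genes 25 fell and 3 rose with TMM, and 14 fell and 7 rose with totals. That quintile held 26 of these 35, and 56.6% of all genes in it were called lower with TMM and 35.8% with totals. CCNA2 fell by 0.88, MAD2L1 by 0.74 and CCNB1 by 0.64 on the log2 scale. The 19 G1 cyclins, kinases and inhibitors were mixed, with 10 lower and 6 higher, and their median of -0.16 turned to 0.03 with totals. CDK6 (-0.71), CDK4 (-0.49) and CCND2 (-1.04) fell.

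Genes listed as p53 targets rose in 11 of 20 cases and fell in 3 (median 0.36, and 12 and 1 with totals). Over all genes 18.8% were called higher and 21.7% lower with TMM. Whether p53 itself took part was not tested. BTG2, an antiproliferative gene, had 59.6 and 57.1 CPM in D2000, 22.6 and 20.8 CPM in D6, against 20.1 and 16.6 CPM in untreated cells (1.43 ± 0.07, edgeR adjusted p = 3.34e-20). TP53INP1 rose by 1.13 ± 0.12 on the log2 scale. AEN, an exonuclease of apoptosis, had 25.5 and 23.3 CPM in D2000, against 65.1 and 63.9 CPM in D6 (-1.40 ± 0.06). Replication-dependent histones have mRNAs that mostly lack a poly(A) tail and are poorly sampled by these libraries. Among 46 of them 4 rose and 8 fell, and with totals 6 rose and 6 fell. With TMM both shares, 8.7% and 17.4%, were below the 18.8% and 21.7% of all genes. H1-2 fell by 0.69, H2BC5 by 0.84 and H2BC11 by 0.68 on the log2 scale.

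The erythroid programme of K562 was lower in part. Of 10 globin genes 8 fell and 1 rose under both scalings (median -1.80 with TMM), and their summed level was 36.6 and 35.0 CPM in D2000, 104 and 108 CPM in D6, against 134 and 136 CPM in untreated cells. HBZ, embryonic zeta globin, had 2.77 and 4.54 CPM in D2000, against 23.0 and 21.7 CPM in D6. The globin genes share near-identical stretches, so the split between them is uncertain. Of 17 haem enzymes and carriers 10 fell and 3 rose, and with totals 6 fell and 5 rose. ALAS2, the rate-limiting erythroid enzyme of haem synthesis, had 42.1 and 38.7 CPM in D2000, against 99.3 and 100 CPM in D6 (-1.30 ± 0.05). SLC25A37, the mitochondrial iron importer, fell by 0.51 on the log2 scale. Of 32 genes for red-cell membrane, iron and blood groups 16 fell and 6 rose, and the median of -0.17 turned to 0.02 with totals. TFRC, the transferrin receptor, had 223 and 219 CPM in D2000, against 583 and 607 CPM in D6 (-1.43 ± 0.04), while RHAG fell by 0.93 and ADD2 by 2.07 on the log2 scale.

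Among 23 haematopoietic transcription factors 11 fell and 2 rose, and with totals 9 fell and 4 rose. The top quintile by level, where 56.6% of all genes were called lower with TMM, held 13 of these 23. MYB had 106 and 105 CPM in D2000, against 262 and 269 CPM in D6 (-1.33 ± 0.04). NFE2 (-1.22 ± 0.04) and KLF1, the erythroid Krüppel-like factor (-1.01 ± 0.06), fell with it. Markers of other blood lineages were called in both directions, and their part in the other results was not tested. The defining myeloid markers LYZ, CD14, MPO and FCGR3A summed to 59.8 and 59.6 CPM of library totals in D2000, against 43.2 and 42.1 CPM in D6, nearly all of it LYZ. Of 13 myeloid genes 5 rose and none fell under TMM, and ITGAM, the CD11b integrin chain, had 192 and 191 CPM in D2000, 58.5 and 56.6 CPM in D6, against 7.41 and 8.34 CPM in untreated cells (1.74 ± 0.07, edgeR adjusted p = 2.84e-22). AIF1 and lysozyme, LYZ, rose by 0.92 and 0.30 on the log2 scale. Of 11 lymphoid genes 4 rose and 2 fell. CD3D fell by 1.46 ± 0.27 on the log2 scale; CD24, described above, is the other fall. Of 14 platelet genes 5 rose and 3 fell. ITGA2B, the platelet integrin chain, had 28.3 and 30.8 CPM in D2000, against 12.95 and 11.6 CPM in D6 (1.27 ± 0.16), and TUBB1 fell by 0.71 on the log2 scale.

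Interferon-stimulated genes rose in 34 of 58 cases and fell in 6, with a median of 0.44 (39, 3 and 0.63 with totals), in cells that received no interferon. Antiviral effectors rose in 18 of 31 cases, genes of the ISG15 system in 4 of 6 and sensors or signalling genes in 12 of 21. DHX58, the RNA sensor LGP2, had 14.1 and 13.9 CPM in D2000, 2.53 and 2.21 CPM in D6, against 1.91 and 1.29 CPM in untreated cells (2.56 ± 0.15, edgeR adjusted p = 1.75e-17). IFI27 (chromosome 14, 94104836 to 94116698) had 6.81 and 6.25 CPM in D2000, 1.51 and 1.92 CPM in D6, against 1.54 and 1.61 CPM in untreated cells (1.94 ± 0.10). For both genes the D2000 libraries stood alone. LAP3, a peptidase, was an exception at 78.5 and 74.2 CPM in D2000, against 135 and 141 CPM in D6 (-0.85 ± 0.04). The summed level of the list was 2311 and 2228 CPM in D2000, 2055 and 2097 CPM in D6, against 2056 and 2029 CPM in untreated cells.

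The motif GAAA, any 2 bases, GAAA, a core of interferon-response elements, was searched on both strands in the same windows. Counted in the same unlike way, it occurred in 3.02% of all promoters and in 24 of 45 interferon-stimulated genes with a window (53.33%). It also occurred in 3 of 49 processome and 4 of 47 60S genes. Stretches of 60 bases are shown for SAMD9 (chr7:93118080-93118139, minus strand), which was level with TMM and higher in D2000 with totals, and for IFI27 (chr14:94110604-94110663, plus strand), which rose, with matches in capitals. IFI27 holds a match on each strand. Its stretch lies before the RefSeq start but inside the longer span given above for the counted gene, so the 2 starts differ.
SAMD9: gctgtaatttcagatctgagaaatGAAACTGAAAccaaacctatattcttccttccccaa
IFI27: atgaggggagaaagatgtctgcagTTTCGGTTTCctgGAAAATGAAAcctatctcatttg

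In interferon receptor signalling 5 of 15 genes rose and 5 fell, and 9 rose and 3 fell with totals. STAT2 had 106 and 103 CPM in D2000, against 67.3 and 67.4 CPM in D6 (0.63 ± 0.05), JAK1 rose by 0.50 and JAK2 fell by 0.49 on the log2 scale. Of 21 genes of class I antigen presentation 6 rose and 5 fell, with a median of -0.02 that became 0.17 with totals. The chaperones of peptide loading CANX, CALR and PDIA3 fell by 0.47, 0.48 and 0.47 on the log2 scale. Inflammatory NF-kB targets rose in 5 of 20 cases and fell in 4, shares close to the 18.8% and 21.7% of all genes. TNFAIP3 had 9.96 and 9.73 CPM in D2000, 19.5 and 19.6 CPM in D6, against 13.3 and 11.7 CPM in untreated cells (-0.99 ± 0.12), SOD2 fell by 0.88 and NFKBIE rose by 0.67 on the log2 scale.

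Further lists showed smaller or divided shifts. Of 20 endoplasmic reticulum chaperones 14 fell and 4 rose (13 and 5 with totals), and HSPA5 fell by 0.51 on the log2 scale. The top quintile by level, where 56.6% of all genes were called lower with TMM, held 14 of these 20. Of 25 heat shock and oxidative stress genes 16 fell and 1 rose, and with totals 10 fell and 2 rose; GCLM, a subunit of the enzyme that starts glutathione synthesis, had 52.9 and 51.3 CPM in D2000, against 112 and 112 CPM in D6 (-1.10 ± 0.05). Sterol and fatty acid synthesis fell in 17 of 35 cases and rose in 5 with TMM, but with totals 7 fell and 9 rose and the median changed sign, at -0.14 with TMM and 0.06 with totals. Of these genes 24 of 35 lay in the top quintile by level, and their share of falls with TMM, 48.6%, was below the 56.6% of all genes there. HMGCS1 (-0.60) and INSIG1 (-0.68) fell and TM7SF2 rose by 1.23 on the log2 scale. Of 22 SWI/SNF, mediator and acetyltransferase genes 6 rose and 8 fell, and with totals 9 rose and 3 fell. All 22 lay in the top quintile by level, and their share of falls with TMM, 36.4%, was below the 56.6% of all genes there. KAT2B (0.82) and SMARCC2 (0.38) rose and SMARCC1 (-0.42) fell.

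Matrix genes rose in 7 of 21 cases and fell in 3. LAMB1, a laminin chain, had 67.5 and 62.1 CPM in D2000, against 32.4 and 32.2 CPM in D6 (1.00 ± 0.07), and COL4A2 fell by 1.62 ± 0.20 on the log2 scale. Of 14 fibroblast, endothelial or epithelial genes 5 rose and 4 fell. EPCAM, an epithelial adhesion molecule, had 30.4 and 30.7 CPM in D2000, against 61.1 and 60.7 CPM in D6, KRT19 fell by 0.81 and VIM by 0.40 on the log2 scale. The markers COL1A1, COL3A1, EPCAM, KRT5 and PECAM1 summed to 80.5 and 80.7 CPM of library totals in D2000, against 100 and 98.6 CPM in D6. Of 20 neighbours of SAMD9 on 7q21 4 rose and 2 fell, near the 18.8% and 21.7% of all genes; with totals 9 rose and 1 fell. CDK6 and FAM133B (-0.33 ± 0.07, not called with totals) fell and AKAP9 rose by 0.35 ± 0.05 on the log2 scale.

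Set against untreated VPR-D9 cells, D2000 had many more called genes than D6, and since the comparisons share libraries their values are given side by side only. D2000 had 10201 genes called (46.1%), 4853 higher (21.9%) and 5348 lower (24.2%). D6 had 1461 (6.60%), 707 higher (3.19%) and 754 lower (3.41%). Changes over 2-fold numbered 2120 higher and 784 lower in D2000, and 209 higher and 19 lower in D6. The 57 processome genes had a median of -0.94 in D2000 (55 fell) and -0.07 in D6 (5 fell and 1 rose). The 55 genes of 60S assembly had medians of -0.92 and -0.07, with 53 and 6 falls. DNA replication and nucleotide supply had a median of -0.72 in D2000 (41 of 41 fell) and -0.13 in D6 (16 fell). Interferon-stimulated genes had medians of 0.55 in D2000 (37 rose and 6 fell) and 0.18 in D6 (11 rose and 3 fell). MYC was -1.60 ± 0.04 in D2000 and 0.08 ± 0.04 in D6 (not called), while SAMD9 was 3.99 ± 0.06 and 3.97 ± 0.06.

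**Figure D4:**
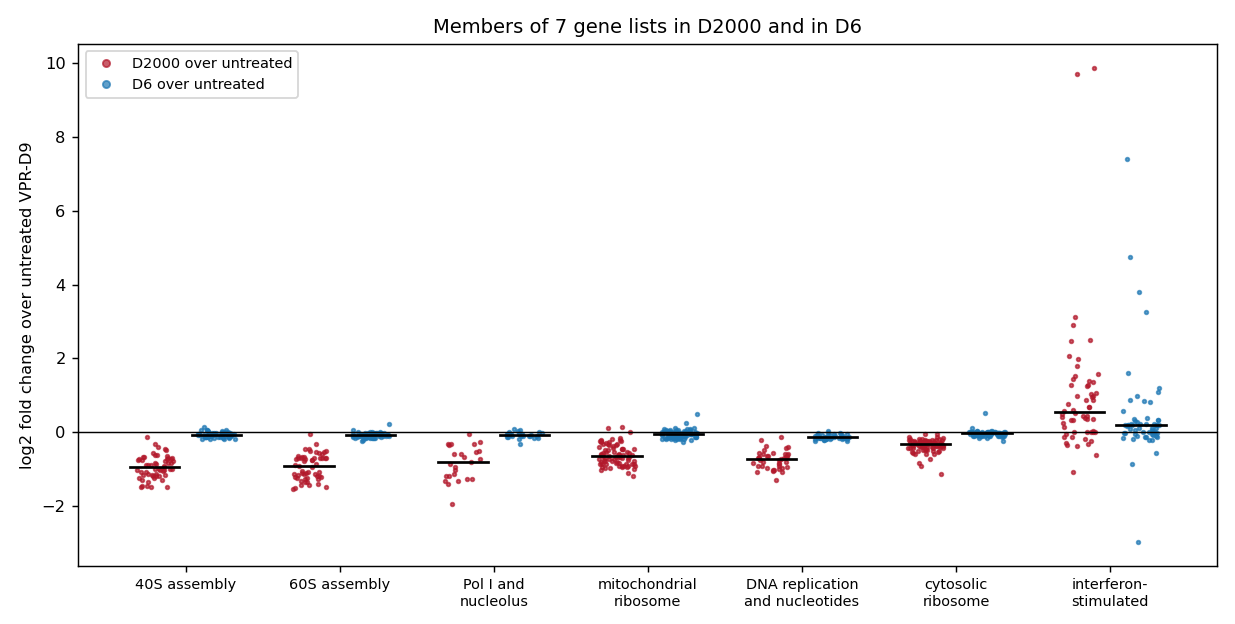
Log2 fold change over untreated VPR-D9 cells of each tested member of 7 gene lists, in D2000 (red, left) and D6 (blue, right), with a black bar at the median. The D6 members of the ribosome, mitochondrial and replication lists lie close to zero and the D2000 members below it; the extreme interferon-stimulated points are faint genes with few or no counts in untreated cells, whose fitted values depend on a prior count.

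KRAB-D9 cells gave a doxycycline comparison that shares no library with D2000 and D6. There doxycycline left SAMD9 at 0 and 0.117 CPM, against 0.750 and 0.364 CPM in untreated KRAB-D9 cells, the opposite direction to VPR-D9. It called 5469 genes (24.7%), 2654 higher (12%) and 2815 lower (12.7%). Across 22143 genes its log2 fold changes correlated weakly with those of D2000 over D6 (Spearman rho 0.276, Pearson r 0.138, genes not being independent replicates). Lower in both were 1947 genes, 40.6% of the lower genes of D2000 and 69.2% of those of KRAB-D9. Higher in both were 1383, or 33.3% and 52.1%. Genes called higher in D2000 and lower with doxycycline in KRAB-D9 numbered 277, and the reverse 336. With interferon present in KRAB-D9 cells, doxycycline called 4929 genes (22.3%), 2302 higher (10.4%) and 2627 lower (11.9%), and the shared lower genes were 1892 (39.4% and 72.0%) and the shared higher ones 1215 (29.3% and 52.8%).

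Ribosome assembly was lower with doxycycline in KRAB-D9 cells too. Of the 57 processome genes 50 fell (median -0.38), of 55 for 60S assembly 48 fell (median -0.34) and of 25 for RNA polymerase I 17 fell (median -0.31). UTP20 had 87.9 and 85.0 CPM with doxycycline, against 147 and 144 CPM in untreated KRAB-D9 cells (-0.75 ± 0.04), and MYC had 197 and 201 CPM, against 281 and 291 CPM (-0.52 ± 0.04). Other lists went different ways in the KRAB-D9 cells, a contrast that was not tested as a difference. Haem enzymes and carriers rose there in 12 of 17 cases, red-cell genes in 22 of 32, sterol and fatty acid genes in 21 of 35 and histones in 24 of 46. ALAS2 had 408 and 389 CPM with doxycycline, against 238 and 251 CPM without it (0.70 ± 0.04). ATF4 rose by 0.49 ± 0.04 there and HMGCS1 by 0.67 ± 0.04. Cytosolic ribosomal proteins had a median of 0.03 (8 higher, 7 lower), and myeloid genes fell in 5 of 13 cases with none higher.

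**Figure D5:**
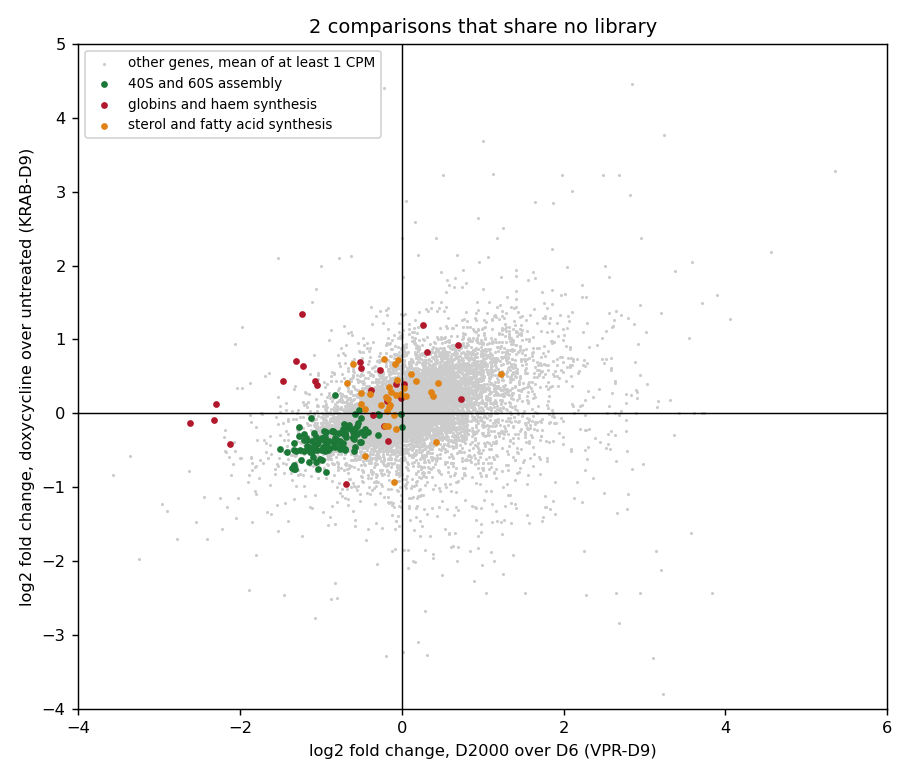
Log2 fold change of D2000 over D6 in VPR-D9 cells (horizontal) against doxycycline over untreated in KRAB-D9 cells (vertical) for genes with a mean of at least 1 CPM, 14 of which lie outside the axes, with members of 3 kinds of list in colour. Ribosome assembly genes sit low on both axes, whereas haem and sterol genes are spread to the left and mostly above zero.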

How the data were processed

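Poly(A)-selected stranded RNA libraries were sequenced from 9 groups of 2 libraries. The authors deposited unnormalized integer read counts for each gene. Per the submitters' processing notes, the tools were STAR 2.7.8a, featureCounts 2.0.2, cutadapt 2.10 and FastQC 0.11.9, with build GRCh38.p13. No source used here gives the strand setting, annotation release or treatment of multi-mapping reads, so antisense, overlapping and duplicated genes are uncertain. Genes were filtered with filterByExpr by group and fitted in edgeR 4.0.16 (R 4.3.3; TMM, robust quasi-likelihood, 18 libraries, 9 group means, 9 residual degrees of freedom, biological coefficient of variation 0.0569), tested on simulated data. Calls are Benjamini-Hochberg adjusted p under 0.05 over 22143 genes. Standard errors divide the log2 fold change by the root of its F statistic. Separate cultures are not stated in the labels, and p-values therefore reflect the spread between these samples, which may be technical. Library totals, other factors and filters, DESeq2 1.42.0, subsets of libraries and a replicate block were alternatives.

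Named genes were SAMD9, SAMD9L, the 12 largest rises and falls among called genes (approved symbol, mean of at least 1 CPM, groups not overlapping), the 8 largest gains and losses in CPM of library totals, and the 3 members of each of 40 lists with the smallest adjusted p. Of 1195 genes in lists 1140 were tested, 45 had low counts and 10 were not matched. The comparison, lists and members were chosen with earlier results of these data known, so they are descriptions by count and median beside all genes. Some genes that this rule selects are not reported here.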

Additional observations from a re-analysis of the deposited data

How the results depend on the processing

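The number of genes called stayed between 7360 and 9978 under every alternative run. Library totals gave 6481 higher and 2945 lower genes, 318 over 2-fold lower, 68.76% of calls higher, and SAMD9 at 0.21 (called); 7097 calls (79.3%) kept their direction and 8 turned. A stricter filter gave 334 over 2-fold lower genes. Upper quartile factors put 54.4% of calls higher. DESeq2 called 8817. Without the 2 KRAB-D9 interferon libraries, whose spread was widest, 9370 genes were called (an alternative chosen after seeing the data). Leaving out 1 library at a time (the lone library is then assumed to vary like the other groups) gave 7360 to 7551 calls, 3140 to 3377 higher, 4142 to 4348 lower, 1050 to 1081 over 2-fold higher, 491 to 529 over 2-fold lower, and SAMD9 at -0.00 to 0.05. Same-numbered libraries did not deviate together (r = -0.04 over 10446 genes). With 2 libraries a group this cannot exclude that equal numbers share a culture or a day. The replicate block gave 8815 calls and SAMD9 at 0.02. Of 152 named genes, 145 kept their call with library totals; MT-CO1, MT-ND1, MT-ND2 and FAM133B lost it, and SAMD9, MT-CO2 and MT-CYB gained one. Which scaling is closer to RNA per cell cannot be decided from counts.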
